A study of Mus musculus with 8 samples.

Results

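Markers of smooth muscle cells that have left the contractile state were described in mouse aortic tissue: Runx2, Sox9, Mgp, Lgals3, Ly6a, Fn1, Vim, Tpm4 and Myh10. The genes were found by their symbols in the deposited gene table, which held all 9 members among 13839 genes, and all 9 passed the filter on low counts. Whole aortic tissue was profiled by RNA sequencing in 3 libraries of the thoracic aortic dissection (TAD) model and 5 control libraries. For the TAD group, mice on a normal diet drank water with β-aminopropionitrile (BAPN), a blocker of the lysyl oxidases that stabilise matrix fibres. The dose was 1 g/kg per day over 4 weeks, beginning at 3 weeks of age. A pump under the skin delivered angiotensin II, a vasoconstrictor peptide, at 1 µg/kg per min from 7 weeks of age, and tissue was collected 24 h after implantation. The treatment of the control mice, the strain, and whether a dissection was seen in each TAD mouse are not given in the sources used here. Nothing in the labels ties a library to an individual animal, and the p-values therefore reflect library-to-library spread, which may be technical.

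Vascular smooth muscle cells of a healthy aorta are contractile and make actin, smooth muscle myosin and their regulators in bulk. In disease models they can lose these proteins and take up other programmes, called synthetic, fibroblast-like, progenitor-like, macrophage-like or osteochondrogenic after the cells whose genes they share. None of the 9 genes is particular to smooth muscle: macrophages, fibroblasts and endothelial cells express several of them. In bulk tissue, a change in the number of cells of a type and a change in RNA per cell cannot be told apart.

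Library totals ran from 12042971 to 15039132 counts. Levels are given as CPM, which puts the counts of all libraries on 1 total after TMM normalisation, and a gene was called when its adjusted p from edgeR's quasi-likelihood test was below 0.05. Summed heart muscle markers ranged from 39.9 to 13805 CPM in TAD and from 46.0 to 20494 CPM in control, with TAD 1 and control 1 highest. Summed neuronal and Schwann cell markers reached 1803 CPM in TAD 2, against 25.0 and 100.1 CPM in the other TAD libraries and 30.4 to 186 CPM in control. Red cell markers summed to 31343 to 77615 CPM in TAD and to 1614 to 7565 CPM in control, with all 8 called higher. Acta2 and Myh11, which encode contractile actin and myosin, were present in every library, at 386 to 2679 CPM and 171 to 1162 CPM in TAD and at 945 to 5754 CPM and 590.4 to 4034 CPM in control.

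Of the 9 members, 4 rose in TAD (Lgals3, Runx2, Ly6a and Tpm4), 1 fell (Myh10) and 4 were not called (Mgp, Sox9, Fn1 and Vim). Over the 13701 genes tested, 15.2% were called higher and 11.8% lower, and the median log2 fold change was 0.04. The counts of called genes in each list below stand beside these shares. The TAD and control libraries did not overlap for Lgals3, Runx2, Ly6a and Tpm4, where 31.9% of all genes tested had no overlap. Lgals3 and Runx2 were more than 7-fold higher, Ly6a 3.63-fold and Tpm4 2.75-fold higher, and Myh10 was 3.11-fold lower. For single genes, an exact two-sided permutation test of log2 CPM over all 56 assignments of the libraries can give no p below 0.0179, and these p-values are unadjusted over the 9 genes.

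**Figure D1:**
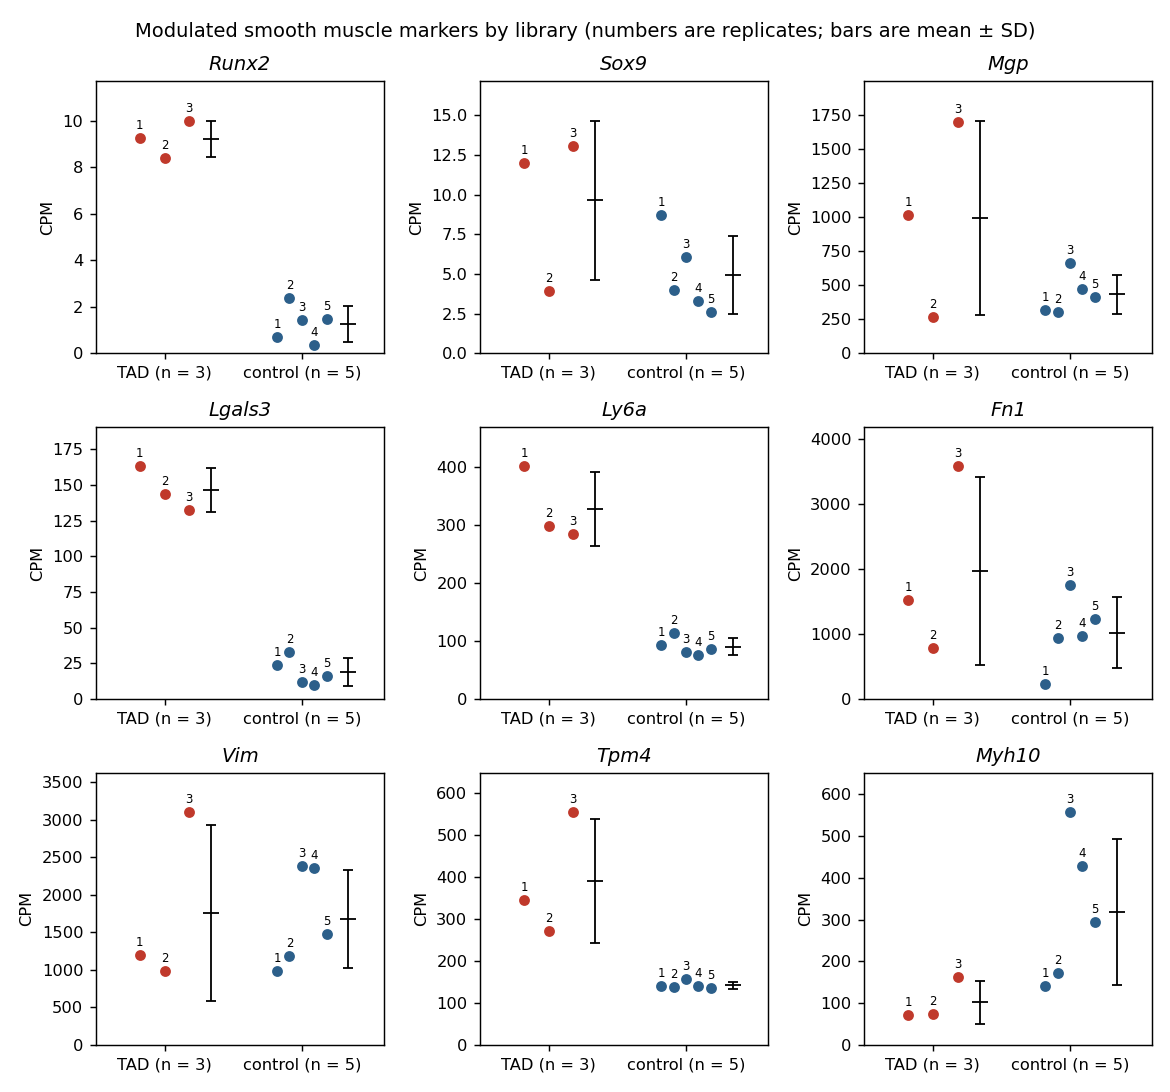
Level of each member in CPM (vertical axes, linear and starting at 0) in the 3 TAD libraries (red, left) and the 5 control libraries (blue, right), numbered by replicate, with mean ± SD beside each group. All TAD points lie above all control points for Runx2, Lgals3, Ly6a and Tpm4, while TAD 2 lies among or below the control points for Sox9, Mgp, Fn1 and Vim.

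Among the called members, promoter sequence was at hand for Runx2, Lgals3, Tpm4 and Myh10, and those of Runx2 and Myh10 are shown because they hold a match to one of the motifs searched. The windows are from RefSeq on GRCm38.p6 and run from 250 bases before to 50 bases after the annotated start, 5′ to 3′ on the strand of the gene. Runx2 lies on the minus strand (chr17:44814578-44814877) and Myh10 on the plus strand (chr11:68691665-68691964). Capitals mark the matches, which are ACCACA in Runx2, the reverse complement of the RUNX motif TGTGGT, and the MCAT motif CATTCC in Myh10.
Runx2: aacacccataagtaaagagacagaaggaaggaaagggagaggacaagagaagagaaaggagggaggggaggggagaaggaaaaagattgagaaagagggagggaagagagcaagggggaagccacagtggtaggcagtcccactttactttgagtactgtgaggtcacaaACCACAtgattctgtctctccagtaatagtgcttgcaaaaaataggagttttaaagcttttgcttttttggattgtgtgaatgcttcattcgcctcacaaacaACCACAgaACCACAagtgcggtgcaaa
Myh10: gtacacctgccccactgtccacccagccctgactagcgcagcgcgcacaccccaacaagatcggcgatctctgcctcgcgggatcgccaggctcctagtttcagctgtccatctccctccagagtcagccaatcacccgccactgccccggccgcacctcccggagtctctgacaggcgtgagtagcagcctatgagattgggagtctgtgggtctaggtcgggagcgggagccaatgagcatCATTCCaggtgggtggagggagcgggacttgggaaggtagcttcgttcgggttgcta
The Runx2 window holds 3 RUNX matches, at bases 171 to 176, 274 to 279 and 282 to 287, and the Myh10 window holds 1 MCAT match, at bases 244 to 249. On both strands of the 32851 promoters in the table, RUNX matches were present in 16.8% and MCAT matches in 14.7%. AP-1 (TGANTCA, in 7.81% of promoters) and the CArG box (in 1.63%) were searched as well and match neither window. The windows of Lgals3, Vim and Tpm4 hold none of the 4 motifs. The GC content is 45.3% in the Runx2 window and 62.7% in the Myh10 window, against a median of 52.7% over all promoters.

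Runx2, a transcription factor required for bone formation and a marker of osteogenic change in calcifying vessels, rose in TAD and was among the least abundant members in both groups. Its level was 9.29, 8.42 and 9.99 CPM in TAD 1 to TAD 3, against 0.718, 2.40, 1.42, 0.367 and 1.46 CPM in control 1 to control 5. The 3 TAD libraries were close to each other, and the lowest of them was above the highest control, control 2. The level was 7.21-fold higher in TAD (log2 fold change 2.85 ± 0.51, SE; edgeR adjusted p = 0.00485; exact permutation p = 0.0179, the smallest possible). Depth limits the control values: they rest on 5 to 32 counts per library, and the 5 counts of control 4 have an exact Poisson 95% interval of 0.119 to 0.856 CPM, which covers counting error only. The TAD values rest on 113, 127 and 152 counts. Runx2 (ENSMUSG00000039153) spans 44495987 to 44814797 on the minus strand of chromosome 17 (GRCm38), and 5.87% of its exon bases are shared with the antisense gene Runx2os1, whose reads cannot be told apart without strand.

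The other RUNX genes rose as well. Runx1, which acts in blood cell formation, was 8.46-fold higher (log2 fold change 3.08 ± 0.40, SE, edgeR adjusted p = 0.00132). Runx3, best known from lymphocytes, was 5.02-fold higher (2.33 ± 0.41, adjusted p = 0.00445), and Cbfb, the shared DNA-binding partner, 1.95-fold higher (0.96 ± 0.19, adjusted p = 0.00686). All 3 tested genes of this list were thus called higher. Runx2 took 11.1%, 17.5% and 13.5% of the counts per exon length of Runx1, Runx2 and Runx3 in TAD 1 to TAD 3, against 12.0%, 20.0%, 18.4%, 4.50% and 10.2% in control 1 to control 5. Its share overlapped between the groups, and the log2 ratio to the other RUNX genes differed by 0.27 (exact permutation p = 0.714; 0.714 after Benjamini-Hochberg adjustment over the 7 ratios tested). Without control 4 that difference was -0.11.

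Sox9, the transcription factor of cartilage formation, was not called. It was measured at 12.0, 3.91 and 13.1 CPM in TAD 1 to TAD 3, against 8.70, 3.97, 6.04, 3.30 and 2.61 CPM in control 1 to control 5. TAD 1 and TAD 3 lay above all controls, but TAD 2 lay among the lower ones. The log2 fold change was 0.97 ± 0.49 (SE; edgeR adjusted p = 0.179; exact permutation p = 0.196). Sox9 (ENSMUSG00000000567) lies on the plus strand of GRCm38 chromosome 11, 112782224 to 112787760.

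Mgp, which encodes matrix Gla protein, a secreted inhibitor of vascular calcification, had the highest level per length of the 9 members in both groups, at 835 ± 601 CPM per kb of exon in TAD (SD, n = 3) and 364 ± 122 in control (SD, n = 5). Its level was 1015, 267 and 1694 CPM in TAD 1 to TAD 3, against 317, 302, 659.9, 470.1 and 413 CPM in control 1 to control 5. TAD 2 was lower than every control, and the other TAD libraries were higher than every control. Mgp was not called (log2 fold change 1.20 ± 0.50, SE; edgeR adjusted p = 0.112; exact permutation p = 0.25). The value rested on single libraries: it was 1.65 and passed the test without TAD 2 (adjusted p = 0.0104), and it was 0.57 without TAD 3 (adjusted p = 0.429). Mgp (ENSMUSG00000030218) lies on the minus strand of GRCm38 chromosome 6, 136872435 to 136875823.

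TAD 2 also stood apart in the markers of fibroblasts, cells that express Mgp in the adventitia. The 13 fibroblast markers summed to 7663, 1868 and 9428 CPM in TAD 1 to TAD 3 and to 5163 to 7047 CPM in control, so TAD 2 was below all controls. Of these 13 markers, 1 was called higher and 2 lower, and none was at 0 in all libraries. Chondrocyte markers, of which 7 were tested and none called by edgeR, by DESeq2 or at an unadjusted p below 0.05, summed to 66.6, 28.0 and 164 CPM in TAD 1 to TAD 3 and to 21.1 to 74.2 CPM in control; Col2a1 and 5 other markers of this list were not analysed here. The part of these cells in the Sox9 and Mgp values was not tested.

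The surrounding osteochondrogenic list held 22 genes, of which Bglap, Ibsp, Sp7, Msx2, Col2a1 and Col10a1 were not found by their symbols in the deposited gene table. Bone and cartilage genes were thus assessed only in part. Of the 16 genes tested, 3 rose, 2 fell and 11 were not called. These shares, 18.8% higher and 12.5% lower, are near those of all genes tested (15.2% and 11.8%), with a median log2 fold change of 0.36 beside 0.04 over all genes. Spp1, which encodes osteopontin, was at 111, 106 and 345 CPM in TAD 1 to TAD 3 and at 0.147 to 1.27 CPM in control (log2 fold change 8.05 ± 0.69, SE; edgeR adjusted p = 0.000289). Without TAD 3 it was 7.26 and still called. Alpl, the tissue-nonspecific alkaline phosphatase that hydrolyses the calcification inhibitor pyrophosphate, rose 5.32-fold (2.41 ± 0.30, adjusted p = 0.00107). The cell types in which Spp1 and Alpl rose were not tested, and macrophage and neutrophil markers, given below, were higher in TAD too. Sox6, which acts with Sox9 in cartilage, fell to 10.03, 12.9 and 19.9 CPM in TAD, against 67.2 to 72.5 CPM in control (-2.28 ± 0.22, adjusted p = 0.000457). Tnfrsf11b, which encodes osteoprotegerin, was called higher (3.38 ± 0.91, adjusted p = 0.0258), but it was at 26.0, 6.89 and 179.9 CPM in TAD 1 to TAD 3 and its call was lost without TAD 3 (1.27, adjusted p = 0.178) and without control 1, 2 or 5 (log2 fold change up to 3.31).

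Of 10 tested genes for calcification inhibitors and the carboxylation of matrix Gla protein, 3 rose, 1 fell and 6 were not called (median log2 fold change 0.46). Spp1 and Tnfrsf11b are also in this list. Nt5e, the ectonucleotidase CD73 that makes adenosine, rose 4.60-fold (2.20 ± 0.36, SE, edgeR adjusted p = 0.00334). Ank, a transporter that exports pyrophosphate and ATP from cells, fell by 0.76 on the log2 scale (adjusted p = 0.0315), and its call was lost in 7 of the 8 omissions of 1 library, all but TAD 3 (-0.78 to -0.60, adjusted p 0.0516 to 0.116). Ggcx, the carboxylase that activates matrix Gla protein, was at -0.75 and was not called (adjusted p = 0.0601); it was chosen after its value was seen.

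Lgals3, which encodes galectin-3, a carbohydrate-binding protein abundant in macrophages and used to mark macrophage-like smooth muscle cells, had a fold change close to that of Runx2, and these were the members with the highest fold changes. Its level was 163, 144 and 132 CPM in TAD 1 to TAD 3, against 23.8, 33.0, 12.1, 9.54 and 16.4 CPM in control 1 to control 5. The groups were far apart, and the controls varied more, relative to their mean, than the TAD libraries. The level was 7.72-fold higher in TAD (log2 fold change 2.95 ± 0.37, SE; edgeR adjusted p = 0.00112; exact permutation p = 0.0179). Lgals3 (ENSMUSG00000050335) lies on the plus strand of GRCm38 chromosome 14, 47367751 to 47386160.

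Set against Lgals1, the other abundant galectin gene of the vessel wall, Lgals3 took 25.1%, 26.8% and 9.60% of the counts per exon length of both genes in TAD 1 to TAD 3, against 3.78%, 4.38%, 1.48%, 2.39% and 2.11% in control 1 to control 5. The shares did not overlap, although TAD 3 was nearer to the controls than the other TAD libraries. The log2 ratio differed by 3.12 (exact permutation p = 0.0179; 0.0417 adjusted over the 7 ratios). Lgals1 itself had a log2 fold change of 0.11 and was not called (edgeR adjusted p = 0.859). The ratio therefore largely restates the change of Lgals3 and is not separate evidence.

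Of 8 other tested genes of galectins and their ligand, 2 rose, 1 fell and 5 were not called (median log2 fold change 0.11). Lgals12, a galectin of adipocytes, fell (-2.07 ± 0.44, SE; edgeR adjusted p = 0.00995), beside adipocyte markers that summed to 6560 to 10023 CPM in TAD and to 15199 to 16737 CPM in control, with 6 of 10 called lower. Lgals3bp, which encodes a secreted galectin-3 ligand, rose by a log2 fold change of 1.15 (adjusted p = 0.0215), and Lgals9 by 0.67 (adjusted p = 0.0398). Neither call was stable: that of Lgals3bp was lost without control 4, TAD 1 or TAD 2 (adjusted p 0.0534 to 0.0785), and that of Lgals9 without any library but TAD 3 (0.0547 to 0.118).

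Macrophage markers were also higher in TAD. Of the TAD libraries, their sum was lowest in TAD 2, while Lgals3, at 132 to 163 CPM in TAD, was lowest in TAD 3. The 15 markers summed to 1917, 1183 and 1899 CPM in TAD 1 to TAD 3 and to 445 to 876 CPM in control, without overlap; 7 of 15 were called higher, all 15 had a positive log2 fold change, and none was at 0 in all libraries. Summed neutrophil markers were 429 to 1277 CPM in TAD and 10.3 to 137 CPM in control, with 6 of 10 tested called higher. Lgals3, Runx2, Ly6a and Tpm4 had no overlap between the groups either, as had 31.9% of all genes tested. The part of these cells in the 4 rises was not tested.

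Of 9 genes described in macrophage-like smooth muscle, 4 rose, 2 fell and 3 were not called (median log2 fold change 0.30). Macrophages express all of them, and Cd68 is in the macrophage list too. Msr1, a scavenger receptor, was at 107, 102 and 85.7 CPM in TAD and at 3.30 to 5.77 CPM in control (log2 fold change 4.54 ± 0.20, SE; edgeR adjusted p = 4.26e-05). Cd44, a hyaluronan receptor, rose 9.01-fold (adjusted p = 0.00127), and Cd68, a lysosomal macrophage marker, 4.66-fold (adjusted p = 0.00342). The receptor gene Tlr4 rose by a log2 fold change of 0.95 (adjusted p = 0.036), a call lost without control 1, 2, 4 or 5, TAD 1 or TAD 3 (adjusted p 0.0616 to 0.14). The 2 that fell, Lpl and Cd36, encode a lipase and a fatty acid transporter that adipocytes also make; they were at -0.90 and -0.76 and were named after their values were seen.

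Ly6a encodes Sca-1, a surface protein anchored in the membrane by glycosylphosphatidylinositol that marks progenitor-like smooth muscle cells in mice, and is also found on endothelial cells and adventitial fibroblasts. It rose with the smallest standard error of the 9 members. Ly6a was at 401, 299 and 285 CPM in TAD 1 to TAD 3, against 94.0, 114, 81.6, 76.1 and 87.0 CPM in control 1 to control 5. Each TAD library was more than 2-fold above the highest control. The level was 3.63-fold higher in TAD (log2 fold change 1.86 ± 0.17, SE; edgeR adjusted p = 0.000409; exact permutation p = 0.0179). Ly6a (ENSMUSG00000075602) lies on the minus strand of GRCm38 chromosome 15, 74994877 to 74998031, in a family of closely similar genes, so reads could be split among them in counting and its level is uncertain to that extent.

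The neighbouring family member Ly6c1, a marker of endothelial cells and fibroblasts, rose less. Ly6a took 75.3%, 68.6% and 74.5% of the counts per exon length of both genes in TAD 1 to TAD 3, against 52.0%, 61.8%, 56.8%, 62.1% and 53.5% in control 1 to control 5. All TAD shares were above all control shares, and the log2 ratio differed by 1.00 (exact permutation p = 0.0179; 0.0417 adjusted over the 7 ratios). Endothelial markers, of which 4 of 12 fell and none rose, summed to 1182 to 1738 CPM in TAD and to 1607 to 2260 CPM in control.

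Of 6 tested Ly6 and related GPI-anchored proteins, 4 rose, none fell and 2 were not called (median log2 fold change 0.71). Plaur, the urokinase receptor, was 14.5-fold higher (3.86 ± 0.41, SE; edgeR adjusted p = 0.000602). Ly6c2, a marker of inflammatory monocytes, was 9.31-fold higher (adjusted p = 0.0049). Ly6c1 had a log2 fold change of 0.84 (adjusted p = 0.0193) and Ly6e one of 0.59 (adjusted p = 0.0232). The call of Ly6c1 was lost without TAD 1 or TAD 2 (adjusted p 0.0512 and 0.0625), and that of Ly6e without control 4 or TAD 1 (0.0548 and 0.0798).

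Among 16 genes of progenitor and fibroblast-like smooth muscle, 8 rose, none fell and 8 were not called (median log2 fold change 0.81). Spp1 (8.05), Tnfrsf11b, Ly6c1 and Ly6e, given above, are among those that rose and are counted in other lists too. The calls of Tnfrsf11b, Ly6c1 and Ly6e were lost in some omissions of 1 library. Timp1, a metalloproteinase inhibitor, was at 566, 114 and 649 CPM in TAD and at 3.37 to 7.61 CPM in control (log2 fold change 6.36 ± 0.57, SE; edgeR adjusted p = 0.000346). Prg4, which encodes the lubricant lubricin, was at 793, 181 and 441 CPM in TAD and at 4.99 to 15.1 CPM in control (5.54 ± 0.55, adjusted p = 0.000503; 4.93 without TAD 1). Thbs1, which encodes thrombospondin-1, rose 28.3-fold (4.82 ± 0.52, adjusted p = 0.000641). The fibroblast genes Dcn, Lum and Cd34 of the same list were not called, at log2 fold changes of -0.17, 0.78 and -0.45; they were named after their values were seen.

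Fn1, which encodes fibronectin, a matrix protein that synthetic smooth muscle cells and fibroblasts lay down, spread widely within both groups. Its level was 1529, 791 and 3579 CPM in TAD 1 to TAD 3, against 228, 941, 1752, 972 and 1224 CPM in control 1 to control 5. TAD 3 stood above all other libraries and control 1 below them, and the rest were mixed. Fn1 was not called (log2 fold change 0.94 ± 0.62, SE; edgeR adjusted p = 0.294; exact permutation p = 0.357), and without TAD 3 the fold change was 0.18. Fn1 (ENSMUSG00000026193) lies on the minus strand of GRCm38 chromosome 1, 71585520 to 71653200, and shares 2.5% of its exon bases with the opposite-strand gene Apol7d.

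Of 16 genes for fibronectin receptors and assembly, 4 rose, 1 fell and 11 were not called (median log2 fold change 0.52). These counts moved with single libraries: 7 were called higher without TAD 2, and 2 higher and 2 lower without TAD 3, while none was called lower without TAD 1. The fibronectin receptor subunit Itga5 was at 467, 213 and 1126 CPM in TAD 1 to TAD 3 and at 66.2 to 224 CPM in control (log2 fold change 2.22 ± 0.55, SE; edgeR adjusted p = 0.0188). Its call was lost without TAD 3, the library highest for Fn1 too (1.40, adjusted p = 0.0664). Sdc4, a proteoglycan co-receptor of focal adhesions, rose 3.77-fold (1.92 ± 0.34, adjusted p = 0.00476). Tnc, which encodes the matrix protein tenascin C, had a log2 fold change of 2.17 (adjusted p = 0.043), lost without control 1, 2, 4 or 5, TAD 1 or TAD 3 (1.47 to 2.23, adjusted p 0.0595 to 0.152). Plaur, given above, is also in this list. Itgb1, the partner of Itga5, was at 0.23 and was not called (adjusted p = 0.664); it was named after its value was seen.

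Vim, which encodes the intermediate filament protein vimentin of mesenchymal cells, showed no difference that this design could resolve. Its level was 1193, 981 and 3102 CPM in TAD 1 to TAD 3, against 982, 1191, 2386, 2353 and 1478 CPM in control 1 to control 5. The groups overlapped almost fully, with TAD 3 highest and TAD 2 and control 1 lowest and about equal. The log2 fold change was 0.07 ± 0.45 (SE; edgeR adjusted p = 0.927; exact permutation p = 0.982), with a negative sign in 7 of the alternatives, as low as -0.63 without TAD 3. Vim (ENSMUSG00000026728) lies on the plus strand of GRCm38 chromosome 2, 13573927 to 13582826.

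Relative to Des, which encodes desmin, the muscle intermediate filament, Vim took 59.8%, 89.5% and 99.0% of the counts per exon length in TAD 1 to TAD 3, against 63.5%, 37.3%, 96.3%, 92.9% and 95.7% in control 1 to control 5. The shares overlapped, and the lowest were those of control 2, TAD 1 and control 1. Control 2 had the highest level of the muscle gene Ckm (721 CPM), and TAD 1 and control 1 the highest summed heart muscle markers. Control 4, with a share of 92.9%, had more summed heart muscle markers (3473 CPM) than control 2 (1823 CPM). The part of these tissues in the shares was not tested. The log2 ratio differed by 0.85 (exact permutation p = 0.679; 0.714 adjusted over the 7 ratios) and by -0.76 without TAD 3. Against Lmna, the lamin A/C gene, the log2 ratio of Vim differed by -0.32 (exact permutation p = 0.339; 0.475 adjusted). Of 13 other intermediate filament genes, 3 rose, none fell (1 by DESeq2) and 10 were not called (median log2 fold change 0.18). Lmnb1, the lamin B1 gene, rose 5.72-fold (2.52 ± 0.38, SE; edgeR adjusted p = 0.00242). Gfap (2.05, adjusted p = 0.0357), a glial filament gene, and Krt18 (1.43, adjusted p = 0.0293), an epithelial keratin gene, lost their calls in 5 and 6 omissions of 1 library, with adjusted p up to 0.163 and 0.103; without TAD 1 Gfap was at 1.41.

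Tpm4, a cytoskeletal tropomyosin of non-muscle actin filaments, rose in TAD, and its control levels were nearly equal. It was at 346, 272 and 555 CPM in TAD 1 to TAD 3, against 140.3, 138, 157, 141 and 135 CPM in control 1 to control 5. The controls stayed within a narrow band, the TAD libraries spread widely above it, and TAD 3 was highest. The level was 2.75-fold higher in TAD (log2 fold change 1.46 ± 0.21, SE; edgeR adjusted p = 0.00206; exact permutation p = 0.0179). Tpm4 (ENSMUSG00000031799) lies on the plus strand of GRCm38 chromosome 8, 72134975 to 72153142, and shares 6.08% of its exon bases with the opposite-strand gene Gm26586. Tropomyosin genes are alike in sequence, so their counts may be split among them and are uncertain to that extent.

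Within the tropomyosins, Tpm4 took 26.2%, 44.5% and 51.5% of the counts per exon length of Tpm1 to Tpm4 in TAD 1 to TAD 3, against 15.2%, 7.48%, 17.8%, 16.5% and 23.8% in control 1 to control 5. Every TAD share was above every control share, with TAD 1 closest to the controls. The length implied by the deposited FPKM of Tpm4 was 3.67 times the merged exons used here, so the size of these shares depends on the annotation. The log2 ratio of Tpm4 to the others differed by 1.89 (exact permutation p = 0.0179; 0.0417 adjusted over the 7 ratios); without control 3 it differed by 1.96 with p = 0.0571. Tpm3, which also encodes cytoskeletal forms, rose 2.72-fold (1.44 ± 0.14, SE; edgeR adjusted p = 0.000412), while the muscle tropomyosins Tpm1 and Tpm2 were at -0.13 and -1.69 and were not called (adjusted p = 0.895 and 0.137).

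Of the 13 tested genes of tropomyosins, actins and their regulators, 7 rose, none fell (1 by DESeq2) and 6 were not called (median log2 fold change 0.65). Cfl1, which encodes the actin-severing protein cofilin-1, rose 2.31-fold (1.21 ± 0.12, SE; edgeR adjusted p = 0.000487). Tpm3-rs7, a copy related to Tpm3 whose reads may come from Tpm3, had a log2 fold change of 1.56 (adjusted p = 0.00395). Actg1, the cytoskeletal gamma-actin gene, rose by 0.90 (adjusted p = 0.0291), a call lost without control 1, 2, 4 or 5, TAD 1 or TAD 3 (adjusted p 0.0521 to 0.0912). Acta2 in the same list was at -1.17 ± 0.72 and was not called (adjusted p = 0.258); without TAD 3 it was at -2.17 (adjusted p = 0.0643).

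**Figure D2:**
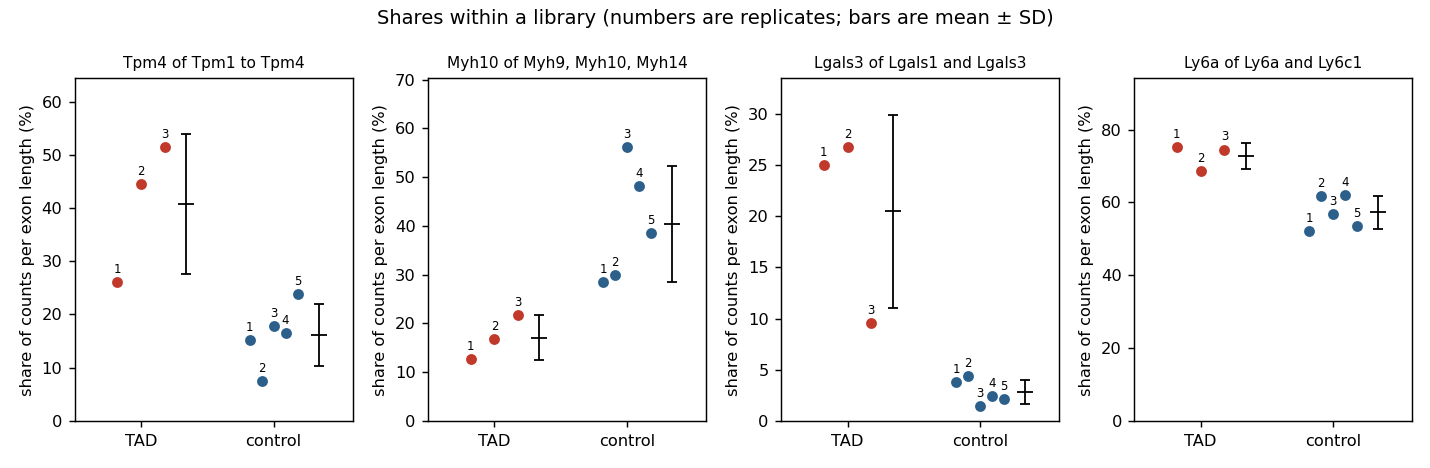
Share of a member in the counts per exon length of the genes named above each panel (vertical axes, percent, starting at 0) in the TAD libraries (red, left) and the control libraries (blue, right), numbered by replicate, with mean ± SD. The TAD shares lie above all control shares for Tpm4, Lgals3 and Ly6a and below all control shares for Myh10, where they range from 12.7% to 21.8%. The size of the Tpm4 share depends on the exon length taken for Tpm4, which is uncertain.

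Myh10 encodes non-muscle myosin heavy chain IIB, the form also called SMemb in embryonic smooth muscle and used as a marker of the synthetic state, and it was the member called lower. It was at 70.8, 74.6 and 162 CPM in TAD 1 to TAD 3, against 141, 173, 557, 428 and 294 CPM in control 1 to control 5. TAD 3 exceeded control 1, and the other TAD libraries lay below all controls. The level was 3.11-fold lower in TAD (log2 fold change -1.64 ± 0.52, SE; edgeR adjusted p = 0.0481), with an exact permutation p of 0.0536. The call was close to the threshold and was lost without TAD 1, TAD 2, control 3, control 4 or control 5 (-1.66 to -1.34, adjusted p 0.0796 to 0.151). Myh10 (ENSMUSG00000020900) lies on the plus strand of GRCm38 chromosome 11, 68691559 to 68816632.

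Among the 3 non-muscle myosin heavy chain genes Myh9, Myh10 and Myh14, Myh10 took 12.7%, 16.8% and 21.8% of the counts per exon length in TAD 1 to TAD 3, against 28.6%, 30.0%, 56.2%, 48.3% and 38.6% in control 1 to control 5. The TAD shares were all below the control shares. The log2 ratio to the other genes differed by -1.72 (exact permutation p = 0.0357; 0.0625 adjusted over the 7 ratios), and its unadjusted p was 0.0571 without control 1, 2 or 5 and 0.0952 without TAD 1. None of the 13 other tested genes of non-muscle myosin II, its light chains and regulators was called by edgeR (median log2 fold change -0.27), while 3 were lower at an unadjusted p below 0.05 and 3 by DESeq2. Myl9 and Myl6, light chain genes with the highest FPKM of the list, were at -0.89 ± 0.52 and -0.27 ± 0.31 (SE; edgeR adjusted p = 0.241 and 0.554). Myh9, which encodes non-muscle myosin IIA, was at 0.25 and was not called; it was named after its value was seen.

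The level of Myh10 ran in the same order over the controls as that of the contractile genes. Myh11 was at 260.5, 171 and 1162 CPM in TAD 1 to TAD 3, against 590.4, 1320, 4034, 2847 and 2052 CPM in control 1 to control 5. For Myh10, Myh11, Acta2 and Vim alike, control 1 was lowest, followed by controls 2, 5, 4 and 3, and TAD 3 was the highest TAD library. Myh11 was not called over all 8 libraries (log2 fold change -2.03 ± 0.80, SE; edgeR adjusted p = 0.0949) and was called without TAD 3 (-3.33, adjusted p = 0.0191), as was Cnn1, which encodes calponin (-1.17, adjusted p = 0.326; -3.0, adjusted p = 0.0141 without TAD 3). The part of smooth muscle content in the Myh10 value was not tested.

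The contractile and synthetic lists are given beside these members, and were chosen with earlier results of these data known. Of 22 contractile genes, none rose, 3 fell and 19 were not called (median log2 fold change -1.08). The share that fell, 13.6%, is near the 11.8% of all genes tested. The number that fell was 9 without TAD 3 and 6 by DESeq2, which called none higher. Synpo2, an actin-bundling protein gene, and Rgs5, a regulator of G protein signalling in mural cells, had log2 fold changes of -1.98 and -1.44 (edgeR adjusted p = 0.0189 and 0.0142). Without TAD 1 the calls of Synpo2 (adjusted p = 0.0563) and Rgs5 (adjusted p = 0.0618) were lost. Of 22 synthetic genes other than the members, 12 rose, none fell (1 by DESeq2) and 10 were not called (median 1.15), with Timp1, Thbs1, Cd44 and Pdpn leading. Timp1, Thbs1, Cd44 and Tnc are also counted in lists above. Pdpn, which encodes the membrane protein podoplanin, rose 8.44-fold (3.08 ± 0.45, SE; adjusted p = 0.00202). Of 22 regulators of smooth muscle phenotype, none rose, 2 fell and 20 were not called (median -0.01), with the same counts by DESeq2: Notch3, a receptor that maintains mural cells, at -1.66 ± 0.27 (adjusted p = 0.00317), and Foxo4, a forkhead factor, at -1.35 ± 0.14 (adjusted p = 0.000618).

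**Figure D3:**
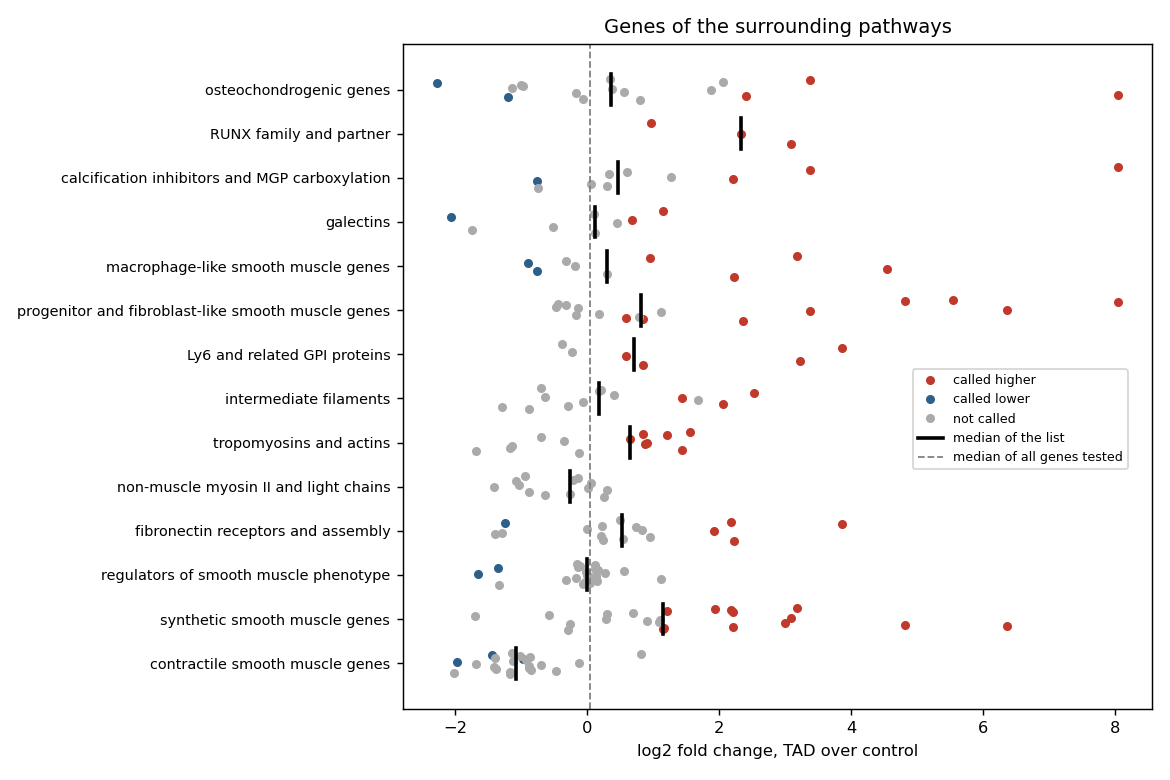
Log2 fold change, TAD over control (horizontal axis), of each tested gene in the 14 lists around the members (rows), with genes called higher in red, called lower in blue and not called in grey. Black bars mark the median of each list and the dashed line the median of all genes tested, 0.04. The synthetic list has a median of 1.15 and the contractile list one of -1.08. The lists were chosen with earlier results of these data known.

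Seen library by library, the 9 members did not move as a block. Relative to the control mean of log2 CPM, Runx2, Lgals3 and Ly6a were raised in all 3 TAD libraries by similar amounts, between 2.80 and 3.04, between 2.94 and 3.24 and between 1.67 and 2.16. Sox9, Mgp and Fn1 were raised in TAD 1 and TAD 3 but not in TAD 2, where they were at -0.19, -0.64 and -0.11. Fibroblast markers were also lowest of the TAD libraries in TAD 2, at -1.72, beside 0.11 in TAD 1 and 0.34 in TAD 3. Mesothelial markers had the same order, at -2.95 in TAD 2, 0.59 in TAD 1 and 0.23 in TAD 3, but ranged from -3.24 to 1.57 in control. Acta2 and Myh11 had their lowest TAD level in TAD 2 as well. Tpm4 was raised in all TAD libraries, by 1.28, 0.94 and 1.96. Myh10 was at -1.98, -1.91 and -0.79 in TAD 1 to TAD 3 and between -0.98 and 0.99 in control.

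**Figure D4:**
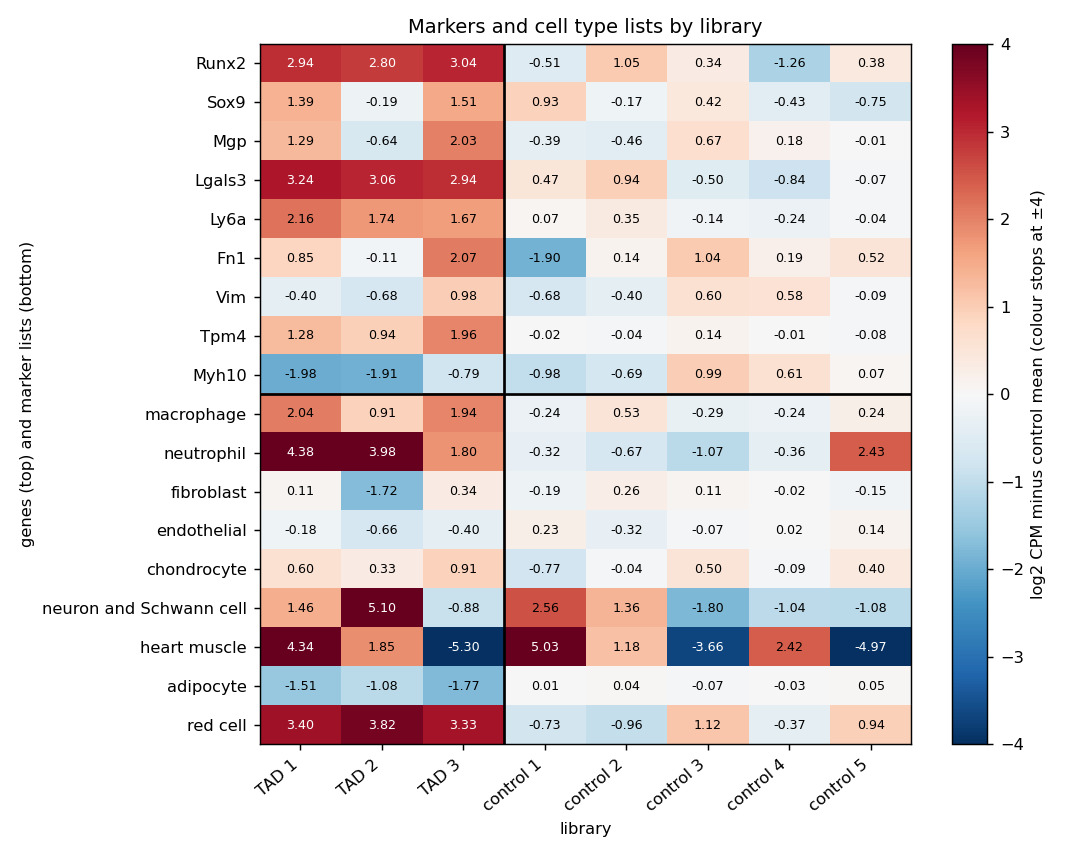
Difference of log2 CPM from the control mean for the 9 members (rows above the line) and, averaged over genes, for 9 cell type marker lists (rows below), in the TAD libraries (left of the line) and the control libraries (right); the colour scale stops at 4 in each direction. Sox9, Mgp and Fn1 are below 0 in TAD 2, where the fibroblast list is at -1.72 and the neuron and Schwann cell list at 5.10.

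Some of the libraries with many counts of other tissues were left out in turn; no fit left out all of them, and TAD 2 stayed in the first and TAD 1 in the second. Without TAD 1 and control 1, which had the highest summed heart muscle markers, the log2 fold changes were 2.70 for Runx2, 2.96 for Lgals3, 1.70 for Ly6a and 1.53 for Tpm4, all still called (edgeR adjusted p = 0.0368, 0.0139, 0.00706 and 0.0185), and -1.62 for Myh10, not called (adjusted p = 0.0984). Without TAD 2, control 1 and control 2, the 4 rises were 3.13, 3.52, 2.05 and 1.63, all called, and Myh10 was at -1.88 (adjusted p = 0.0315). Under that omission Mgp (1.39, adjusted p = 0.0292) and Sox9 (1.64, adjusted p = 0.0332) were also called higher, so 6 members were called higher in place of 4.

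**Figure D5:**
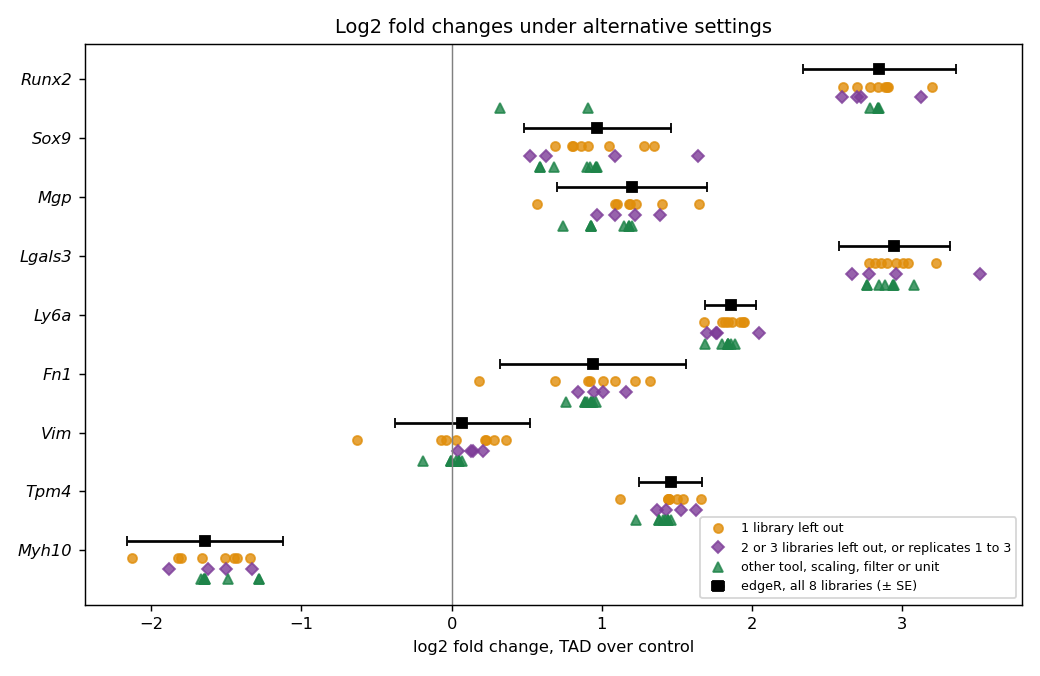
Log2 fold change, TAD over control (horizontal axis), of the 9 members (rows) with all 8 libraries (black squares, ± SE), with 1 library left out (orange), with more libraries left out or replicates 1 to 3 only (purple) and with another tool, scaling, filter or unit (green). Runx2, Lgals3, Ly6a and Tpm4 stay above 0 and Myh10 below 0 throughout, Vim lies on both sides of 0, and the 2 green points of Runx2 below 1 are fits on log2 of FPKM or TPM plus 1.

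Levels per length set the members in order. On CPM per kb of merged exon, the order in TAD was Mgp, Vim (371 ± 246), Ly6a (272 ± 52.7), Tpm4 (177 ± 66.7), Fn1 (168 ± 124), Lgals3 (78.7 ± 8.34), Myh10 (9.80 ± 4.94), Sox9 (2.34 ± 1.21) and Runx2 (1.04 ± 0.0889; SD, n = 3). In control it was Mgp, Vim (354 ± 138), Fn1 (87.6 ± 47.1), Ly6a (75.1 ± 12.2), Tpm4 (64.6 ± 3.87), Myh10 (30.5 ± 16.7), Lgals3 (10.2 ± 5.13), Sox9 (1.19 ± 0.597) and Runx2 (0.144 ± 0.0886; SD, n = 5). Neighbours whose means lay closer than the larger of their SDs were Mgp with Vim, Vim with Ly6a, Tpm4 with Fn1 and Fn1 with Lgals3 in TAD, and Mgp with Vim, Fn1 with Ly6a and Ly6a with Tpm4 in control. Lgals3 stood above Myh10 in TAD and below it in control. The place of Tpm4 depends on the exon length taken for it, which is uncertain.

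For each member, the genes with the most similar pattern were sought by the root mean square difference of log2 CPM, each gene centred on its mean over the 8 libraries, among 10071 other genes. Tpm4 was nearest to Clic1 (0.14) and Spcs3 (0.17), and Ly6a to Sec61g (0.15) and Acvr1b (0.16). Vim was nearest to Dzip1l (0.15) and Mfge8 (0.16), Myh10 to Syt15 and Dact3 (0.20 each) and Mgp to Fkbp10 (0.22) and Lrrc32 (0.23). Larger distances were found for Sox9 with Ier5l (0.29) and Hspb7 (0.37), Runx2 with Csf2rb2 (0.31) and Nfam1 (0.44), Lgals3 with Fcgr3 and Ccr2 (0.33 each) and Fn1 with Fjx1 (0.42) and Chsy1 (0.44). The distance includes the difference between the groups, so genes with a similar fold change come near. Csf2rb2, a cytokine receptor subunit gene, and Fcgr3, an immunoglobulin receptor gene, are expressed in myeloid cells. Their log2 fold changes were 2.98 and 3.24. The cell types of the other near genes were not compared.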

How the data were processed

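Per the labels' protocols, libraries were prepared from TRIpure-extracted total RNA using a NEBNext Ultra kit. Tools in the submitters' processing notes are HISAT2, HTSeq, fastp 0.23.1 and bcl2fastq 2.19; the builds listed there, GRCh38 and hg38, are human, while 13823 of the 13839 gene identifiers occur in GENCODE M21 (mouse). The mouse build and the use of strand are not given in the sources used here. In the authors' table, each gene has, per the file headers, a raw read count and an FPKM value (scaled by gene length and library total) in every library. The deposited FPKM values divide by the summed exons of all transcripts of a gene for 96.3% of 13646 genes (within 2%), a median 1.91 times the merged exon length, so levels between genes are given as CPM per kb of merged exon (GENCODE M21, GRCm38). For Tpm4 the length implied by FPKM was 3.67 times the merged exons and matched neither length, so its level and share depend on the annotation.

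Sample titles gave the groups and the replicate numbers. Raw counts were filtered with filterByExpr, which removed 138 genes, scaled by TMM and tested in R 4.3.3 by the quasi-likelihood test of edgeR 4.0.16, with Benjamini-Hochberg adjustment over 13701 genes. Log2 CPM used a prior count of 2; each standard error was derived from the F statistic and the fold change; the biological coefficient of variation was 41.6%. Fits were tested on simulated data. Alternatives were DESeq2 1.42.0, upper-quartile and RLE scaling, no filter, limma 3.58.1 on log2(FPKM + 1) and (FPKM + 0.1) with a minimum mean FPKM of 0.5, on log2(FPKM + 1) without it, on TPM, a replicate block and omission of libraries. Intervals cover counting error only, as the sources used here name no molecular identifiers.

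The members and gene lists were chosen with earlier results of these data known. Named genes are the 9 members, from every list the called genes with the largest fold changes, at most 4 (the 2 with the highest mean FPKM where fewer than 2 were called), Acta2, Myh11 and Cnn1, and for each member the 2 genes nearest in pattern among those with a mean log2 CPM of at least 3. RefSeq promoters were found for 5 of 9 members. The values of 1 gene that this rule names are not reported here.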

Additional observations from a re-analysis of the deposited data

Results flagged for a closer look

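Dixon's gap test at the 95% level was applied to the 5 control libraries for 9 members and 7 shares, 16 groups in all, of which chance would flag about 1 in 20. It marked 1 value. Tpm4 was at 157 CPM in control 3, where the other controls were at 135 to 141 CPM, a gap of 0.715 of the group's range against a critical value of 0.71. The 3 TAD libraries, at 272 to 555 CPM, lay above this value, and without control 3 Tpm4 was still called higher. The groups of 3 TAD libraries were too small for the test.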

How the results depend on the processing

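Runx2, Lgals3, Ly6a and Tpm4 were called higher under every alternative that gave a value; Runx2 could not be fitted in the limma fits with a mean FPKM filter of 0.5, and its log2 fold change, 2.85 with all libraries, was 0.32 on log2(FPKM + 1) without that filter and 0.91 on log2(TPM + 1), scales on which a pseudocount of 1 understates changes of low genes. Ranges over omission of 1 library each were 2.61 to 3.20 for Runx2, 2.78 to 3.23 for Lgals3, 1.68 to 1.95 for Ly6a, 1.12 to 1.66 for Tpm4, 0.57 to 1.65 for Mgp, 0.69 to 1.35 for Sox9, 0.18 to 1.32 for Fn1, -0.63 to 0.36 for Vim and -2.13 to -1.34 for Myh10. Members called were 4 to 5 higher and 0 to 1 lower, and genes called were 1408 to 2076 higher and 1141 to 1660 lower. Over the same omissions, counts in the small lists also moved, for example 0 to 3 galectin genes, 2 to 5 Ly6 and related genes and 1 to 3 intermediate filament genes called higher, and 1 to 3 osteochondrogenic and 0 to 2 non-muscle myosin genes called lower. Mgp was called without TAD 2 (1.65), and Mgp (1.39) and Sox9 (1.64) without TAD 2, control 1 and control 2. Vim changed sign to -0.00054 in limma on log2(FPKM + 1), with and without the filter, to -0.0009 with a pseudocount of 0.1 and to -0.19 on TPM, where the median of all genes moved by -0.16. Without control 1 and without control 2 Vim was at -0.07 and -0.04, and without TAD 3 at -0.63. Myh10 was not called in limma on log2(FPKM + 1) (-1.28; adjusted p = 0.0568, and 0.063 without the filter), with a pseudocount of 0.1 (-1.49, adjusted p = 0.0502) or on TPM (-1.64, adjusted p = 0.0542). It was not called in replicates 1 to 3 alone (-1.50, adjusted p = 0.168) or without TAD 1 and control 1 (-1.62, adjusted p = 0.0984) either, so 0 members were called lower in these settings. On TPM 1040 genes were called higher, and without TAD 1 and control 1 there were 1098 higher and 865 lower.

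The groups share replicate numbers, but the labels do not say that a number pairs samples. Deviations of same-numbered libraries correlated at 0.405, 0.00789 and 0.6005. TAD 1 and TAD 3 were closest to the control of the same number, but TAD 2 was closest to control 1 (0.3409). With each group centred on only 3 libraries, these values cannot decide whether a number pairs libraries. With the replicate block on replicates 1 to 3, 646 genes were called higher and 520 lower, against 882 and 654 in the same 6 libraries without it, a fit added after seeing the data. The 5 called members kept their calls with the block, with Myh10 at -1.33 (adjusted p = 0.0339).

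Of the ratios, Runx2 to the other RUNX genes turned to -0.11 without control 4 (0.50 at most), and Vim to Des, at 2.28 at most without 1 library, turned to -0.76 without TAD 3 and to -0.68 without TAD 2, control 1 and control 2. The cause of these changes was not tested. With 3 TAD libraries the exact permutation test cannot fall below 0.0179. Sox9 and Runx2 rest on few counts, 34 to 199 and 5 to 152 per library.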
